A study of Caenorhabditis elegans with 12 samples.

Results

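The small nuclear RNAs of *C. elegans* were followed through an mRNA pulldown experiment called vIPR. All rows whose annotated class is snRNA were taken, which gave 130 genes among 57834 *C. elegans* rows of the N2 tables, each gene with 1 row. In the 12 libraries sequenced, only 9 of the 130 rows had at least 1 estimated count, all of them in total RNA, where the class summed to 82.6 counts. The class summed to 0 counts in the 4 inputs and in the 7 elutions.

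Small nuclear RNAs are short, non-coding RNAs that assemble with proteins into snRNPs, the working parts of the spliceosome. U1 and U2 snRNPs recognise the ends of an intron, and the tri-snRNP of U4, U6 and U5 then joins to form the active enzyme. In *C. elegans* many mRNAs also receive a spliced leader from a separate small RNA: the SL1 RNA donates the leader of most trans-spliced genes, and the SL2 RNA that of downstream genes in operons. SmY RNAs are a further nematode class that binds Sm proteins and associates with the trans-splicing machinery.

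All worms were synchronized young adults, and no agent beyond the crosslinking treatment is given. BS1080 carries a *gld-1::gfp* transgene beside its endogenous *gld-1*, DG3913 carries *lin-41* tagged with *gfp* at its own locus (*gfp::lin-41*), and N2 is the wild type. From BS1080 came the total RNA, extracted directly with Trizol and labelled as not crosslinked. BS1080 also gave an input and an elution after PAR-XL (4SU labelling and long-wave UV) and an elution after PFA-XL (paraformaldehyde). An input and an elution after cXL (short-wave UV) came from it as well. The title of the total RNA library also names PAR-XL, and whether its worms were labelled with 4SU cannot be told from that title. DG3913 gave a cXL input and elution, and N2 gave a cXL input and 3 cXL elutions, in which probes against *gld-1*, *lin-41* or *alg-1* were used. The pulldowns from both tagged strains used probes against *gfp*. Worm pools rather than single animals were used, elutions received human HEK carrier RNA, and separate pulldowns supplied the PAR-XL input and the PAR-XL elution. Each condition was 1 library, so no difference has a replicate check and no p-value is given.

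Counts of *C. elegans* RNA without ribosomal RNA came to 18574971 in total RNA, 26695650.0 in the PAR-XL input, 12227263 to 18542857 in the cXL inputs and 268787 to 17484505 in the elutions. Germline, intestinal, muscle and cuticle markers of the adult were all present in total RNA and inputs, at 59.7 to 1232, 137 to 7109, 66.7 to 1344 and 1103 to 2092 TPM per gene. The intestinal yolk genes *vit-2*, *vit-5* and *vit-6* were split by library. They had 137 to 1240 TPM in total RNA and the PAR-XL input, and 2490 to 7109 TPM in the cXL inputs. Depth limits how little of an RNA a library could show. For rows as short as snRNA the row length limited it further, as given below. A floor of 3 counts corresponded to 0.162 CPM (estimated counts scaled to 1000000 *C. elegans* counts without ribosomal RNA) in total RNA, 0.112 CPM in the PAR-XL input, up to 0.245 CPM in the cXL inputs and up to 11.2 CPM in the *alg-1* elution, the shallowest library. Intervals and floors cover counting error only, since no molecular identifiers were used and reads may repeat a molecule.

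The 130 rows were 22 to 187 bases long, with a median of 109 bases. They were grouped by symbol, since the reference tables give no U1 to U6 label for the members known only by a sequence name. The SL1 group held 12 rows of the *sls-1* series (68 to 98 bases, all on chromosome V), the SL2 group held 18 rows of the *sls-2* series (107 to 114 bases), and the SmY group held 10 *smy* rows (77 to 90 bases). A further 2 rows were *sup-6* and *sup-39*, both 165 bases long, which are known from genetics as U1 RNA genes. *mir-1831*, a 22-base row annotated within *sup-39*, also carried the snRNA class. The other 87 rows had a sequence name only and were 80 to 187 bases long. Chromosomes IV and V held 41 and 40 of the 130, chromosomes I, II and III held 17, 16 and 13, and X held 3. Of the 130, 67 lay within or across a protein-coding gene, 40 on its strand and 27 on the other strand, but only 12 touched a protein-coding exon. In a later annotation of the same build (Ensembl release 115), 129 were still present as snRNA genes, 126 with the same coordinates.

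**Figure D1:**
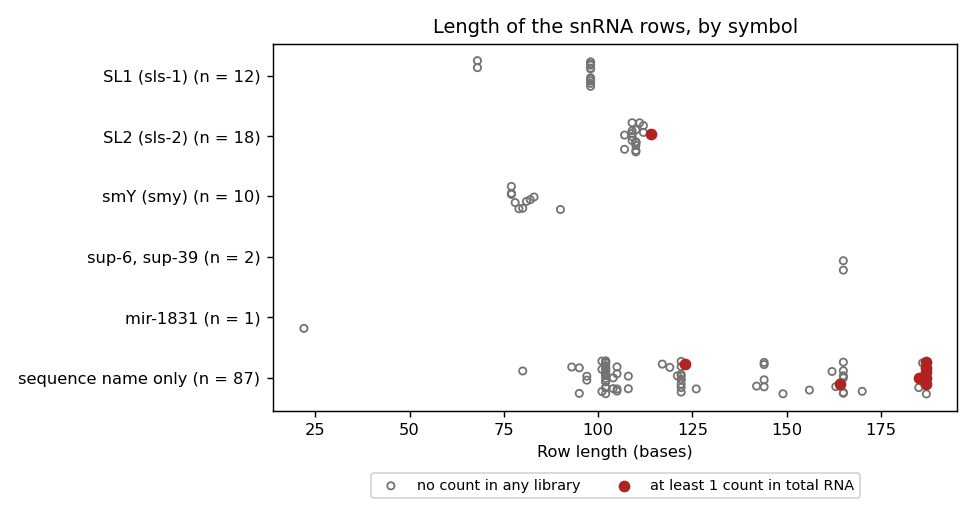
Length in bases of the 130 snRNA rows, 1 point per row, grouped by symbol, with filled points for the 9 rows that had at least 1 estimated count in total RNA. The 12 SL1, 10 SmY and 2 *sup* rows had none, and 6 of the 9 counted rows were 185 to 187 bases long.

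Most snRNA counts of total RNA fell on one gene. F08G2.9 (WBGene00014310, chromosome II of WBcel235, 13835937 to 13836121, minus strand, 185 bases) had 64.4 estimated counts (95% Poisson interval 49.7 to 82.2), which was 78.0% of the class. That corresponded to 3.47 CPM and 96.4 re-normalized TPM. The value was not whole, so reads may have been divided between F08G2.9 and other rows. The interval does not cover such a division, and it was not tested. The other 8 counted members shared the remaining 18.2 counts, and none of them had more than 3.34. F08G2.9 had 0 counts in each of the 4 inputs and each of the 7 elutions, so its total RNA value stood alone.

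The 5 other counted members of 185 to 187 bases all had few counts. F15H9.5 (chromosome I, 12144983 to 12145169, plus strand) and F15H9.6 (chromosome I, 12149579 to 12149765, minus strand) had 3.34 counts each. The values of this pair were identical and not whole, and whether the 2 rows share reads was not tested. Y57G11C.35 (chromosome IV, 14764848 to 14765034, minus strand) had 2.37 counts, F11A5.14 (chromosome V, 16225701 to 16225887, minus strand) 2.16 and Y47H9A.2 (chromosome I, 11628168 to 11628354, minus strand) 1.99. Their values were again not whole. In all, 6 of the 19 members of this length were counted, and they took 77.6 counts, or 93.9% of the class. This range was set to start at the length of F08G2.9, so its share includes that row by choice.

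The 3 counted members of other lengths had whole counts (within 0.001). The SL2 RNA gene *sls-2.6* (chromosome I, 9055149 to 9055262, minus strand, 114 bases) had 2 counts (95% Poisson interval 0.242 to 7.22), or 2.42% of the class, and was the only spliced leader gene with any. F32B5.9 (chromosome I, 2688947 to 2689069, plus strand, 123 bases) had 2 counts, and T27E4.11 (chromosome V, 9086858 to 9087021, minus strand, 164 bases), which lies 272 bases from the heat shock gene *hsp-16.1*, had 1. The members with a sequence name only held 80.6 counts, or 97.6% of the class. *sup-6*, *sup-39*, the 12 SL1 rows, the 10 SmY rows, the other SL2 rows and *mir-1831* were at 0 counts in all 12 libraries.

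**Figure D2:**
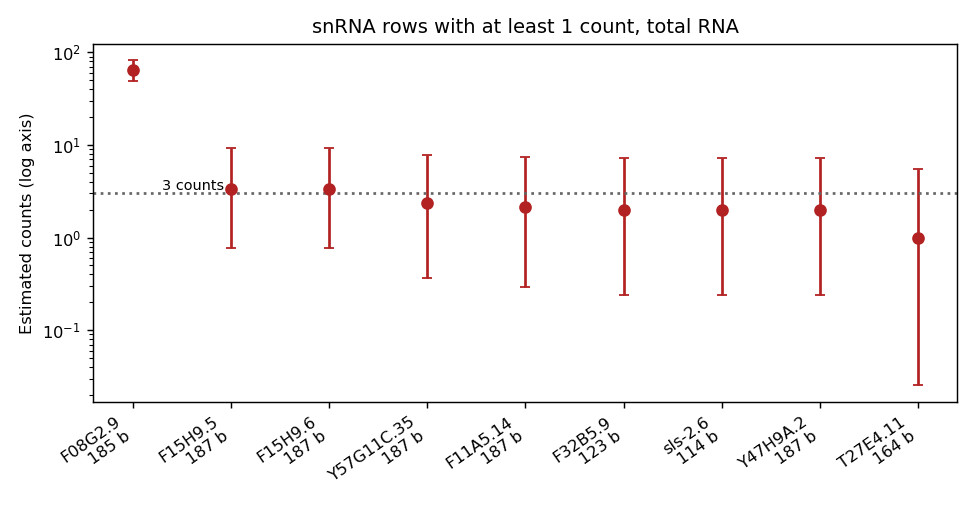
Estimated counts in total RNA of the 9 snRNA rows with at least 1 count, on a log axis, with bars for the 95% Poisson interval and a dotted line at 3 counts. F08G2.9 had 64.4 counts and the other 8 had 1 to 3.34, and all 9 were at 0 in the other 11 libraries.

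F08G2.9 sits among other transcribed rows. The table row of *ins-37*, an insulin-like peptide gene on the same strand, ends 271 bases away, but in release 115 exon 1 of *ins-37* runs from 13835502 to 13836107, with the 5′ UTR at its upstream end, and covers 171 of the 185 bases. *ins-37* had 252 counts in total RNA, 231 counts in the PAR-XL input, and 26, 17 and 3 in the *gld-1::gfp*, *gfp::lin-41* and N2 cXL inputs. The upstream gene F08G2.7, 114 bases away on the same strand, had 203 counts in total RNA against 230 in the PAR-XL input. Both neighbours thus had over 200 counts in each of the 2 libraries between which F08G2.9 went from 64.4 to 0 counts. Whether reads of a longer *ins-37* transcript were counted as F08G2.9 was not tested.

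Many snRNA loci also carry an annotated row on the opposite strand. Of the 130 members, 39 were overlapped by an opposite-strand ncRNA row of 103 to 211 bases, and 33 were covered by one over their full length. The labels name a stranded library kit and the study's methods an unstranded one, and no strand setting is given for the counting, so counts of the members in these pairs cannot be told apart from those of their opposite-strand partners. In total RNA the 36 opposite-strand rows summed to 77.4 counts, with 14 of them counted, against 82.6 counts for all 130 snRNA rows. F08G2.17, a 207-base row that covers F08G2.9 (chromosome II, 13835916 to 13836122, plus strand), had 10.2 counts, and 2 further rows, F08G2.15 and R05D7.8, had exactly the same value. Of the 9 counted members, 4 had such a partner (F08G2.9, F15H9.6, Y47H9A.2 and Y57G11C.35).

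In the PAR-XL input some opposite-strand rows held estimated counts and no snRNA row did, under the same limit on telling a pair apart. There 6 of the 36 had at least 1 count and the rows summed to 25 counts. F08G2.17, F08G2.15 and R05D7.8 had 6.60 counts each, and the 211-base partner of Y57G11C.35 had 3.12. The 6 counted rows were 202 to 211 bases long, and the snRNA rows lying under them were 185 to 187 bases long and at 0. Of the 26 opposite-strand rows under 200 bases, 5 were counted in total RNA and none in the PAR-XL input, and of the 10 rows of 200 bases or more, 9 and 6 were counted. In the cXL inputs and in the elutions all 36 were at 0 counts.

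The comparison of total RNA with the PAR-XL input asked whether RNA taken after lysis holds the transcripts in the proportions of the whole worm. For snRNA rows total RNA had 4.45 CPM (95% Wilson interval 3.59 to 5.52) and the input 0, an interval that reaches 0.144 CPM. Set against the floor of 3 counts over the class, the input was at least 39.6-fold lower, with a 95% Poisson interval of 31.5 to 49.1 on that bound. Without F08G2.9 the bound was 8.72-fold. Other rows of 185 to 187 bases also had fewer counts in the input, as given below, so the fall was not particular to snRNA rows. The share of *C. elegans* counts without ribosomal RNA was 0.000445% in total RNA. On the TPM scale the class summed to 139 in total RNA. Only F08G2.9 had the 10 counts needed for a call past 2-fold, and it was lower in the input; of all 17009 genes tested, 12.4% were lower and 3.8% higher by this rule, so 1 member gives no share to read against them.

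Other short RNAs also had few or no counts in the PAR-XL input. Of rows of 177 to 187 bases, 12 had at least 10 counts in total RNA, F08G2.9 included, and 8 of the 12 were at 0 in the PAR-XL input, where the highest had 4. ZC412.6, a protein-coding row of 179 bases, went from 1187 to 0 counts, and the ncRNA E04F6.16, of nearly that length, from 63 to 0. C28H8.14b, a 185-base ncRNA, went from 139 to 4. These 12 rows were picked by their counts in total RNA, which by itself favours lower counts in the input. Without a filter on counts, the 66 other rows of 185 to 187 bases summed to 346 counts in total RNA. In the PAR-XL input they summed to 13.4 counts.

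Small nucleolar RNAs, which guide chemical modification of ribosomal RNA and are similarly short, also had their highest counts in total RNA. The 345 snoRNA rows (54 to 344 bases, median 130) had 5145 counts together in total RNA, against 377 after lysis in the PAR-XL input. A single 215-base row, ZK185.9, went from 4399 to 4 counts, and the other snoRNA rows had 746 counts (40.2 CPM) and 373 counts (13.96 CPM) in these libraries. The cXL inputs held 13 to 18 snoRNA counts and the elutions 0 to 31. Rows of tRNA, miRNA and piRNA, at most 115 bases long, had 0 counts in total RNA as well.

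Row length went with detection in every library. Each table carries an effective length, which for transcripts over 2000 bases was shorter than the full length by one constant, here called the length offset, that follows the mean fragment length set for the library. The offset was 150 bases in total RNA, 220 in the PAR-XL input, 285 to 313 in the cXL inputs and 249 to 373 in the elutions. The shortest *C. elegans* row of any class with at least 1 count was 108 bases in total RNA, 177 in the PAR-XL input, 269, 284 and 302 in the *gld-1::gfp*, *gfp::lin-41* and N2 cXL inputs, and 266 to 385 in the elutions. In 10 of the 12 libraries, all but total RNA and the PAR-XL input, that row was longer than the longest snRNA row of 187 bases. An snRNA count of 0 in these 10 libraries was therefore shared with every row of that length, 23455 others, and gives no measure of snRNA abundance.

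**Figure D3:**
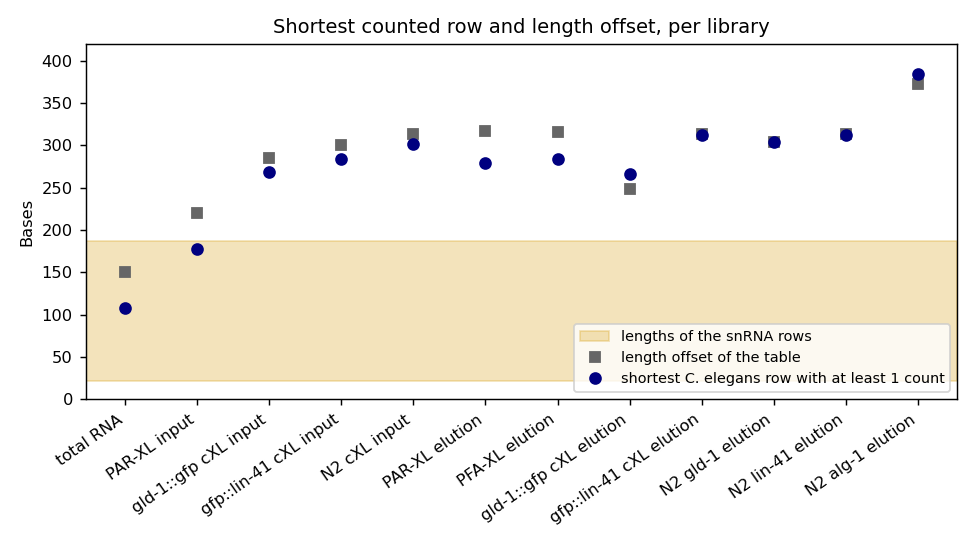
Length in bases of the shortest *C. elegans* row with at least 1 count (circles) and the length offset of the table (squares) in each of the 12 libraries, with the 22 to 187 bases spanned by the snRNA rows shaded. Only total RNA (108 bases) and the PAR-XL input (177 bases) had a counted row inside the shaded range.

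Within total RNA the members were compared with rows of the same length. The edges of the ranges were read from these data. The first range ends just under the shortest counted row of total RNA, so its zeros were fixed by that choice. The range from 185 bases starts at the length of F08G2.9, the most counted member. None of the 59 snRNA rows of up to 107 bases was counted, and neither was any of the 19132 other rows of that length. At 108 to 150 bases, 2 of 38 snRNA rows were counted (5.26%), against 40 of 128 snoRNA rows (31.2%) and 660 of 3406 ncRNA rows (19.4%). At 151 to 184 bases, 1 of 14 snRNA rows was counted (7.14%), against 34.4% of all 581 other rows. At 185 to 187 bases the snRNA rows reached 6 of 19 (31.6%), against 29 of 66 other rows (43.9%). From 108 to 187 bases the snRNA rows thus had the lowest counted share of the 4 classes plotted in each length range. At 185 to 187 bases the protein-coding share was close, at 6 of 16 rows (37.5%), and the snoRNA class held 1 row. These shares are over rows of 1 library, and rows may share reads, so no test is given.

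In the PAR-XL input, which had more depth, 14 of 581 other rows of 151 to 184 bases (2.41%) and 9 of 66 of 185 to 187 bases (13.6%) were counted. None of the 14 and 19 snRNA rows in these ranges was. In this input 23 other rows of up to 187 bases held 29.4 counts together, so a few counts was the most that any row of that length showed.

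**Figure D4:**
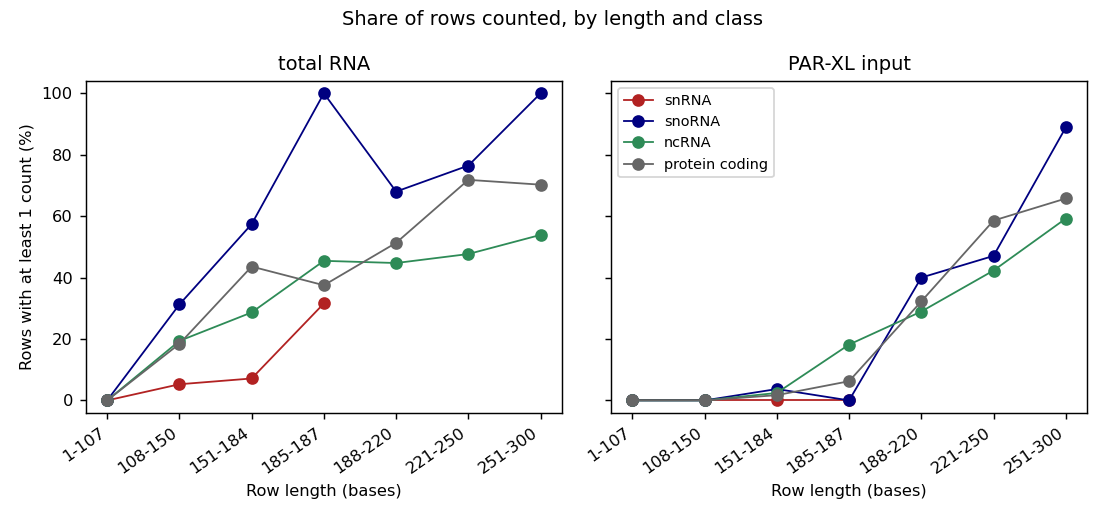
Percent of rows with at least 1 count, by row length in bases, for snRNA, snoRNA, ncRNA and protein-coding rows in total RNA (left) and in the PAR-XL input (right). In total RNA the snRNA points lie under those of the other 3 classes from above 107 to 187 bases and reach 31.6% at 185 to 187 bases. In the PAR-XL input they are at 0.

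The same counts meant different TPM in different tables. For a 110-base row, the length of several SL2 genes, the deposited effective length was 9.76 bases in total RNA and 26.3 bases in the *alg-1* elution. At that length 3 counts corresponded to 17.6 TPM in total RNA, 7.65 TPM in the PAR-XL input and 782 TPM in the *alg-1* elution. For a row of 187 bases they corresponded to 4.31, 4.27 and 598 TPM. In total RNA, the 2 counts of *sls-2.6* gave 11.1 TPM, more than the 4.80 TPM that 3.34 counts gave F15H9.5.

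For the pulldowns no snRNA ratio could be formed, since input and elution were both at 0. By depth alone, without the limit set by row length, the PAR-XL elution of *gld-1::gfp* had a floor of 0.966 CPM and the PFA-XL elution of 0.172 CPM. After cXL the floors were 3.49 CPM for *gld-1::gfp* and 2.13 CPM for *gfp::lin-41*. The N2 elutions had floors of 0.968 CPM with *gld-1* probes, 2.03 with *lin-41* probes and 11.2 with *alg-1* probes. The human carrier RNA gave the same picture. Elution tables hold 1896 human snRNA rows of up to 230 bases, and these were at 0 in each of the 7 elutions, although human rows held 5051245 to 56532415 counts. The shortest counted human row was 241 to 355 bases long. An snRNA held by a pulled-down mRNA would thus not have been detectable in these files.

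The mRNAs of proteins that bind or build snRNPs were well measured, and they show what the libraries hold of this pathway. Of a list of 33 such genes, 32 were matched. In total RNA their median level was 61.8 TPM (20.6 to 178). The 7 Sm core genes, *snr-1* to *snr-7*, whose products form the ring around most snRNAs, had a median of 134 TPM in total RNA, and the 8 LSM genes, whose products bind U6 or take part in mRNA decay, 59.9 TPM. The longest mRNA, that of *prp-8* (7397 bases), the protein at the centre of the spliceosome, had 106 TPM in total RNA and also in the PAR-XL input. Between total RNA and PAR-XL input, 0 of the 32 changed past 2-fold, with ratios of input to total RNA between 0.616 and 1.35 in CPM and a median of 0.954, against 0.862 for all genes tested. No test was run on them.

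The genes for the SL RNP proteins, *sna-1* and *sna-2*, had 73.4 and 52.7 TPM in total RNA and 56.0 and 33.8 TPM in the PAR-XL input. Their CPM ratios of input to total RNA were 0.781 (95% interval 0.711 to 0.858) and 0.712 (0.668 to 0.758). *smn-1*, the homologue of the SMN factor that loads Sm proteins onto snRNAs, had 42.3 TPM in the PAR-XL input, and *snpc-4*, a subunit of the complex that transcribes snRNA genes, had 42.0 TPM. These mRNAs were therefore present in the PAR-XL input, in which all 130 snRNA rows were at 0 counts.

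The shortest of these mRNAs had lower CPM in the cXL inputs. *lsm-6* (349 bases) had 11.6 CPM in total RNA, 8.20 in the PAR-XL input, and 1.62, 0.521 and 0.164 in the *gld-1::gfp*, *gfp::lin-41* and N2 cXL inputs, where the last 2 values rest on 8 and 2 counts. *snr-5* (350 bases), the gene of an Sm core protein, had 33.4 CPM in total RNA, 22.6 in the PAR-XL input and 8.63, 9.77 and 9.57 in the cXL inputs. On the TPM scale, in the same order, *snr-5* had 178, 161, 105, 145 and 140, and *lsm-6* had 62.1, 58.8, 19.9, 7.78 and 2.40. The CPM of both genes was thus lower in each cXL input than in total RNA and the PAR-XL input. In TPM *snr-5* differed less, while *lsm-6* was still far lower in each cXL input. Total RNA, the PAR-XL input and the *gld-1::gfp* cXL input came from the same strain. Both genes were already lower in that cXL input, at 1.62 CPM (*lsm-6*) and 8.63 CPM (*snr-5*). Strain did not differ among these libraries, while crosslinking and length offset did. Per the methods, PAR-XL worms were grown in liquid culture and cXL worms on plates. The part of each of these differences was not tested, and they cannot be told apart. The *gfp::lin-41* and N2 cXL inputs differ in strain as well.

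In the pulldowns most genes had a lower CPM in the elution than in the input, the listed genes included. The denominator of an elution includes the pulled-down target, for CPM and for TPM alike. On the TPM scale the medians of the listed genes differed less. They were 57.9 TPM in the PAR-XL input and 53.9 in the PAR-XL elution. After cXL, input and elution had 75.0 and 39.8 TPM for *gld-1::gfp*, and 99.1 and 58.3 TPM for *gfp::lin-41*. The calls and ratios that follow are in CPM. Their all-gene values take in every gene with at least 10 counts in either library, also those with few counts. The listed genes were not matched to these on abundance, so the medians are not compared like for like. In the PAR-XL elution, 23 of 32 listed genes were lower and 1 was higher past 2-fold (median ratio of elution to input 0.376, and 0.125 over all genes, of which 88.6% were lower and 0.503% higher). In the cXL elution of *gld-1::gfp*, 30 of 32 were lower and 1 higher (median 0.203, and 0.0982 over all genes, with 90.7% lower and 0.899% higher). In the *gfp::lin-41* elution, 29 of 31 were lower and 1 higher (median 0.165, and 0.0883 over all genes, with 95.6% lower and 0.305% higher). The gene that was higher was *prp-31* in each of the 3.

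In the N2 pulldowns, which share 1 input, 0 listed genes were higher. In the *gld-1* elution, 23 of 31 were lower, with a median of 0.310 against 0.208 over all genes (83.2% lower and 0.968% higher). In the *lin-41* elution, 26 of 31 were lower, with a median of 0.191 against 0.142 (88.4% lower and 0.566% higher). In the *alg-1* elution, 24 of 31 were lower, with a median of 0.263 against 0.164 (76.1% lower and 4.02% higher). Between the PAR-XL and PFA-XL elutions, 1 of 30 was higher with PFA-XL (*snr-5*, 2 against 32 counts, a ratio of 2.84 with a 95% interval of 0.681 to 11.9) and 1 lower (*lsm-1*, 31.2 against 13.4 CPM), where 8.95% of all genes were higher and 13.4% lower.

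*prp-31*, whose product holds the U4 snRNA in the tri-snRNP, was the listed gene that stood apart. It had 85.1 to 124 CPM in the 4 inputs and 89.5 CPM in total RNA. In the 4 elutions made with *gfp* probes it had 182 CPM (PAR-XL), 351 (PFA-XL), 2281 (cXL, *gld-1::gfp*) and 1239 (cXL, *gfp::lin-41*), and in the 3 elutions from N2 worms 43.3, 39.96 and 29.8 CPM. In CPM every *gfp*-probe elution was above every input, and every N2 elution was below. On the TPM scale the *gfp*-probe elutions were also above every input. The N2 elutions had 61.4 (*gld-1* probes), 89.3 (*lin-41*) and 44.1 TPM (*alg-1*), against 73.0 TPM in the N2 input. The ratio of elution to input was 20.6 (95% interval 19.4 to 21.9) in the *gld-1::gfp* cXL pulldown, 10.03 (9.40 to 10.7) in that of *gfp::lin-41* and 2.14 (1.95 to 2.34) with PAR-XL. In N2 it was 0.467 with the *gld-1* probes, 0.432 with the *lin-41* probes and 0.321 with the *alg-1* probes. Probes and strain differ together between these pulldowns, and cannot be told apart.

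**Figure D5:**
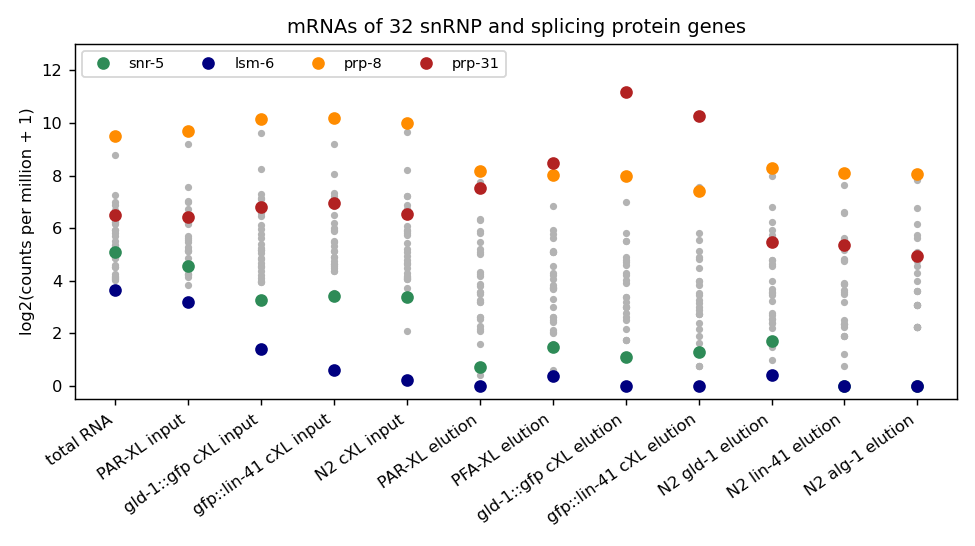
Level of 32 mRNAs of snRNP and splicing proteins in the 12 libraries, as log2(CPM + 1), 1 point per gene and library, with *prp-8*, *prp-31*, *snr-5* and *lsm-6* in colour. *prp-31* is at 2281 and 1239 CPM in the *gfp* elutions after cXL, and *lsm-6* is at 11.6 CPM in total RNA and 0.164 CPM (2 counts) in the N2 input.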

How the data were processed

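RNA sequencing of 12 vIPR libraries of *C. elegans* was used. Per the methods, the authors demultiplexed the reads with bcl2fastq and counted single-end reads with kallisto 0.43.1 on WBcel235 transcripts, setting a mean fragment length per library from Bioanalyzer profiles. Each deposited table holds an estimated count, which is not normalized, and a TPM that the authors scaled over all rows, human and ribosomal RNA included. In single-end mode the far end of a fragment is inferred from the mean length that was set, so values of short rows depend on it, and RNA was purified on beads. The part of either step in the zeros was not tested.

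Human rows, spike-ins, ribosomal RNAs and 3 entries that overlap them were removed, the TPM left were scaled again to 1000000 and CPM were computed from the estimated counts. CPM is the main unit. Symbols came from RefSeq locus tags (WBcel235; 128 of 130 members matched) and surroundings from Ensembl release 115. A call needed a CPM ratio over 2 or under 0.5 and at least 10 counts in either library. Ratios carry a 95% Poisson interval on the log scale. No test was run, as each condition had 1 library. The call rule was tested on simulated data. Members named are the 25 with the most counts in total RNA and inputs, of which 9 had any, and the highest of each group. The members and lists were chosen with earlier results of these data known. No sequence is printed, since no genome sequence was used here. Calculations used pandas 2.3.3 and scipy 1.17.1 under Python 3.11.15, and plots matplotlib 3.10.9.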

Additional observations from a re-analysis of the deposited data

How the results depend on the processing

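The lower bound on the fall of the snRNA rows between total RNA and the PAR-XL input stayed within its counting interval with TPM, with the entries overlapping ribosomal RNA kept and with ribosomal RNA in the denominator, but was 8.72-fold without F08G2.9. With at least 10 counts in place of 1, a choice made after seeing the data, 1 member was detected in total RNA in place of 9. F08G2.9 stayed the only member past 2-fold at 4-fold, at 50 counts and with TPM, and the pulldowns had 0 under each. Ratios for the pulldowns, with the target left out of the denominator as well, were not run, since both libraries were at 0. No paired analysis was possible because each condition had 1 library and no result comes from a test. Depth limits every value: 8 of the 9 counted members had under 4 counts.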

Other observations

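One Sm core gene, *snr-7*, stood apart in the N2 input. It had 3.27 CPM there (40 counts), against 17.0 CPM in total RNA, 20.8 in the PAR-XL input, 20.0 in the *gld-1::gfp* cXL input and 28.6 in the *gfp::lin-41* input. On the TPM scale it had 15.7 in the N2 input and 54.2 to 136 in the other 4 libraries. The other 6 Sm core genes had 9.57 to 105 CPM in the N2 input. The 5 libraries differ in strain and crosslinking and have no replicates, and the gene was chosen after its values were seen. The cause was not tested.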
